A study of Homo sapiens with 45 samples.

Results

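The 30 genes described here act in cholesterol synthesis and sterol control; they are 30 of the 60624 genes counted in each table and were followed through 45 RNA sequencing libraries labelled T47D, a luminal human breast cancer cell line. They were chosen by name for their role, with earlier results of these data known: 20 enzymes of the pathway, 5 regulators of the SREBP transcription factors, and 5 genes of sterol transport, efflux or receptor turnover. The libraries fell into 15 groups of 3, deposited in 4 tables, and every group but 1 was kept in hypoxia. ZHX2, the protein under study, is a transcription factor with zinc fingers and homeodomains. The submitters state that they looked for hypoxia-induced genes under positive ZHX2 control and for changes after disruption of phase separation.

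In the shRNA table, cells with a hairpin against ZHX2 (shZHX2) were in hypoxia, and cells with a control hairpin (shCtrl) were in hypoxia or in normoxia. For the hexanediol table, 1,6-hexanediol, an alcohol that dissolves many phase-separated condensates, was given to hypoxic cells at 0.5% or 1% over 24 h, beside hypoxic control cells; the labels name no hairpin for these. The rescue table held hypoxic shZHX2 cells carrying a ZHX2 construct called WT, PA or SA in the labels, hypoxic shZHX2 cells with vector, and hypoxic shCtrl cells with vector. In the sgRNA table all cells were hypoxic and labelled sgZHX2 against sgCtrl, or teton_sgZHX2 against teton_control. The labels' protocols give lentiviral infection and drug selection but not whether the lines were pools or clones, what PA and SA change, or which oxygen level was used. Whether the 3 libraries of a group came from separate cultures is not stated either, and p-values then reflect only a spread between libraries that may be technical.

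Cholesterol is built from acetyl units through mevalonate, farnesyl diphosphate, squalene and lanosterol. When sterols are scarce in the endoplasmic reticulum, SCAP carries the SREBP precursors to the Golgi, where they are cut, and the released factors switch on the synthesis genes. When sterols are plentiful, INSIG1 and INSIG2 hold SCAP back. Oxysterols made from the pathway act on the LXR receptors, whose targets include the exporters ABCA1 and ABCG1 and the ubiquitin ligase MYLIP, which sends lipoprotein receptors to degradation. INSIG1 and SREBF2 are themselves SREBP targets, and SREBF1 is a target of both systems. In hypoxic cells, oxygen supply matters directly, since squalene epoxidase and several later enzymes use molecular oxygen.

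The promoters of 4 members that turn up repeatedly below are shown from RefSeq (GRCh38.p14), each from 250 bases before to 50 bases after the annotated start, 5′ to 3′ on the gene's strand. MSMO1 encodes the sterol C4 methyl oxidase, STARD4 a sterol carrier of the cytosol, INSIG1 the SREBP brake and SREBF2 the sterol-responsive SREBP-2. Capitals mark CCAAT in either orientation (ATTGG on the printed strand), the box bound by NF-Y, a frequent partner of SREBP, and TCACNCCAC, a form of the sterol element. The windows are chr4:165327419-165327718 for MSMO1 (plus strand), chr5:111512486-111512785 for STARD4 (minus strand), chr7:155297628-155297927 for INSIG1 (plus strand) and chr22:41832855-41833154 for SREBF2 (plus strand).
MSMO1: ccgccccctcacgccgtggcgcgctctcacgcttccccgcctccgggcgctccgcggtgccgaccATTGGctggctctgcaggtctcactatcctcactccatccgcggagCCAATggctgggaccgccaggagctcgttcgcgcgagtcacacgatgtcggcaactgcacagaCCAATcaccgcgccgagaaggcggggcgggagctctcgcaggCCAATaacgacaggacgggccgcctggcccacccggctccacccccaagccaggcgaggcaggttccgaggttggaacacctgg
STARD4: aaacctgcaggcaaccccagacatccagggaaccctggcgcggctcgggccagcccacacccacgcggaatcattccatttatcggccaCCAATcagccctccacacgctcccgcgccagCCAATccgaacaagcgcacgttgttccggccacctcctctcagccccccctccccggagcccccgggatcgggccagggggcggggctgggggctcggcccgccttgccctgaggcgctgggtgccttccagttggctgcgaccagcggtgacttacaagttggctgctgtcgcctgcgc
INSIG1: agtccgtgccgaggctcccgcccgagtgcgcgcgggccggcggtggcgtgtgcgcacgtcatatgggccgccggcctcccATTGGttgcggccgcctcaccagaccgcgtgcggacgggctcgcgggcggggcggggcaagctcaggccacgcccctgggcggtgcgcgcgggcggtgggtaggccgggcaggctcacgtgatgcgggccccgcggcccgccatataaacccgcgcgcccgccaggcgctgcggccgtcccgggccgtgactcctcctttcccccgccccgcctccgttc
SREBF2: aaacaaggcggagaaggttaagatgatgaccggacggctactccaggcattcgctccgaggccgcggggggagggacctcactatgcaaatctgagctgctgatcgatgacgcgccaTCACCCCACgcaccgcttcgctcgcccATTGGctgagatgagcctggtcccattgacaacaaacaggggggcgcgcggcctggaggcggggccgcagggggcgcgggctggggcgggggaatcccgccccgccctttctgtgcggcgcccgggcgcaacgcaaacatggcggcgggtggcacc
In the SREBF2 promoter the letters TCACCCCAC stood at position -133 from the start and a CCAAT box at -106. MSMO1 held 4 CCAAT boxes, at -185, -139, -76 and -34. Promoters were matched for 26 of the 30 members. Both strands were searched, and a gene counted once if any of its promoters held the letters. CCAAT occurred in 18 of the 26 (69.2%), against 39.7% of the 27305 symbols with a promoter. TCACNCCAC occurred in 1 of the 26, SREBF2, against 1.39% of symbols. The shorter CACNCCAC, which lies inside it and was added after the first search, occurred in 5 of the 26 (19.2%; INSIG1, ABCA1, IDI1, SC5D and SREBF2), against 7.05% of symbols. The hypoxia element cores ACGTG and GCGTG occurred in 8 and 20 of the 26 (30.8% and 76.9%), against 24.9% and 40.6% of symbols. Such matches describe the letters only.

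Levels are CPM, the read counts of a gene relative to the TMM-scaled total of its library, computed within each table. Fold changes are edgeR log2 values ± SE, and a call means a Benjamini-Hochberg adjusted p below 0.05 over all genes tested in the table. Total counts per library were 14111216 to 27217814. ZHX2 itself measured 4.91, 3.75 and 6.79 CPM in shZHX2 cells, against 21.6, 18.3 and 16.4 CPM in hypoxic shCtrl cells. In the rescue table the ZHX2 forms gave 71.3 to 74.0 CPM (WT), 53.6 to 54.4 CPM (PA) and 78.4 to 82.9 CPM (SA), against 6.24 to 7.27 CPM with vector and 30.5 to 34.3 CPM in shCtrl vector cells. In the sgRNA table ZHX2 was 47.9 to 51.3 CPM with sgZHX2 and 43.8 to 46.6 CPM with sgCtrl, called slightly higher (0.13 ± 0.04, adjusted p = 0.0044). It was 48.3 to 50.9 CPM with teton_sgZHX2 and 45.7 to 49.4 CPM with teton_control (0.05 ± 0.04, adjusted p = 0.24). ZHX2 mRNA was thus not lowered in either pair and does not check the guide labels. NDRG1, a gene strongly induced by hypoxia, was 477 to 492 CPM in hypoxic and 6.10 to 7.59 CPM in normoxic shCtrl cells. In the hexanediol table it went against the hypoxia label in 2 libraries: it had 231, 223 and 218 CPM in control cells, 264, 24.8 and 242 CPM at 0.5%, and 126, 26.5 and 122 CPM at 1%. ADM and ANKRD37, also induced by hypoxia, were lowest in the same second library of each dose. CA9, another such gene, was 0.275 to 1.42 CPM throughout that table, against 23.0 to 24.4 CPM in hypoxic shCtrl cells, a level across separately normalised tables. By the same cross-table reading, ADM was 22.5 to 24.4 CPM in hexanediol control cells. In shCtrl cells it was 105 to 110 CPM in hypoxia and 30.2 to 32.1 CPM in normoxia. For ANKRD37 these levels were 2.57 to 3.33, 13.1 to 14.3 and 3.08 to 3.91 CPM in the same order. NDRG1 and CA9 stood above their normoxic levels in hexanediol control cells. The 10 luminal markers summed to between 4470 and 61295 CPM, and 8 markers of basal, fibroblast, endothelial and blood cells to between 25.7 and 77.4 CPM. Of those 8, PECAM1 had no count in 30 of the 45 libraries, and PTPRC and COL1A2 had none in 22. KRT5 had none in 9, KRT14 in 3 and VIM in 1. COL1A1, at 12.9 to 72.3 CPM, and ACTA2, at 3.70 to 15.9 CPM, had counts in every library.

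Across tables the members' levels differed widely, and the tables were not normalised together, so this is a description only. INSIG1 (ENSG00000186480, chromosome 7, 155297776 to 155310235) averaged 145 ± 1.04 CPM in hypoxic shCtrl cells, 61.7 ± 3.09 CPM in hexanediol control cells, 1769 ± 73.8 CPM in shCtrl vector cells and 1080 ± 10.1 CPM in sgCtrl cells (SD, n = 3 each). INSIG2 averaged 5.25, 29.6, 115 and 182 CPM in the same 4 groups. Per kilobase of merged exon, the highest member in hypoxic shCtrl cells was TM7SF2, a sterol C14 reductase, at 233 CPM per kb, followed by DHCR7, which reduces 7-dehydrocholesterol to cholesterol, at 193 CPM per kb. In sgCtrl cells INSIG1 led at 296 CPM per kb, with MSMO1 next at 156 CPM per kb. ABCA1 was the lowest per kilobase in each of the 15 groups. Counts of 7 members are uncertain because a protein-coding gene overlaps them and the strand setting of the counting is not given in the sources used here: ACAT2, MVK, GGPS1, CYP51A1, TM7SF2, SREBF1 and NPC1.

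Hypoxia was compared with normoxia in shCtrl cells. The pathway split: INSIG1, DHCR7, LSS, MVD, SREBF1 and SREBF2 were more than 2-fold higher in hypoxia, while HMGCS1, SC5D, ABCA1, LBR and GGPS1 were more than 2-fold lower, LBR and GGPS1 with signs that turned under a correction for GC content and length. Of 30 members, 20 were higher and 8 lower, where 43.1% of all genes tested were higher and 36.8% lower (79.9% called). The split rests on the scaling: with library size alone, which moved the fold changes of all genes by a median of -0.48, it was 12 higher and 13 lower. The members' median log2 fold change was 0.41, against 0.12 over all genes tested.

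All 5 SREBP regulators were called higher in hypoxia, with a median of 1.09, although INSIG2 turned sign with library size alone and SCAP with the GC and length correction. INSIG1 measured 144, 146 and 144 CPM in hypoxia, against 36.3, 39.1 and 34.1 CPM in normoxia (log2 fold change 1.99 ± 0.05, adjusted p = 1.8e-42), the largest rise of any member. SREBF1, the gene of SREBP-1, had 472, 471 and 474 CPM in hypoxia and 208, 208 and 185 CPM in normoxia (1.24 ± 0.04). SREBF2 had 607, 602 and 578 CPM in hypoxia and 285, 275 and 279 CPM in normoxia (1.09 ± 0.03). In all 3 genes the groups lay far apart. INSIG2 was 5.67, 5.69 and 4.38 CPM in hypoxia and 3.77, 4.13 and 4.25 CPM in normoxia, a narrow gap at a low level.

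Among the 20 enzymes, 13 were called higher and 7 lower, and the 8 mevalonate steps split 4 to 4. HMGCS1, the synthase that makes HMG-CoA, fell to 12.8, 13.3 and 12.5 CPM in hypoxia, against 41.2, 37.9 and 39.8 CPM in normoxia (-1.62 ± 0.08). MVD, the mevalonate diphosphate decarboxylase, had 313, 301 and 311 CPM in hypoxia and 113, 111 and 108 CPM in normoxia (1.48 ± 0.03). These members of one route therefore moved in opposite directions. DHCR7 rose to 811, 799 and 803 CPM in hypoxia, against 227, 218 and 223 CPM in normoxia (1.85 ± 0.03), and the lanosterol synthase LSS rose by 1.56 ± 0.03. SC5D, the C5 desaturase just before DHCR7, fell to 16.1, 17.0 and 17.3 CPM in hypoxia, against 48.4, 51.0 and 50.6 CPM in normoxia. The oxygen-using SQLE was nearly level, at 63.0, 65.4 and 67.3 CPM in hypoxia and 58.9, 56.1 and 55.2 CPM in normoxia (0.20 ± 0.05), and its sign turned with library size alone. Fold change went with GC content over all genes tested (Spearman rho 0.69, a description across genes), and the correction for GC and length turned the sign of PMVK, LBR, GGPS1, SCAP, CYP51A1, TM7SF2 and IDI1, but not those of INSIG1, SREBF1, SREBF2, DHCR7, LSS, MVD, HMGCS1 or SC5D.

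Of the transport and efflux genes, ABCG1, which exports sterols to lipoproteins, had 25.9, 24.2 and 25.1 CPM in hypoxia and 14.0, 12.3 and 12.01 CPM in normoxia (0.97 ± 0.08). ABCA1 was barely detected, with 0.0651, 0.190 and 0.243 CPM in hypoxia and 0.605, 0.615 and 0.867 CPM in normoxia, that is 8 and 47 counts in all (-2.01 ± 0.56, adjusted p = 0.0011), the largest fall of any member by fold. MYLIP gave 8.14, 6.83 and 8.15 CPM in hypoxia and 7.58, 8.82 and 10.0 CPM in normoxia, overlapping groups. The LXR-linked exporters thus did not move as one. Mitochondrial genes took 9.12 to 9.57% of counts in hypoxia and 4.55 to 4.76% in normoxia, and the luminal markers summed to 60704 to 61295 CPM in hypoxia and 23608 to 25339 CPM in normoxia. Markers of other cell types summed to 58.9 to 61.7 CPM in hypoxia and 40.6 to 43.7 CPM in normoxia. The part of any of these in the sterol changes was not tested. In bulk RNA, fewer cells of a type and less RNA per cell cannot be told apart.

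**Figure D1:**
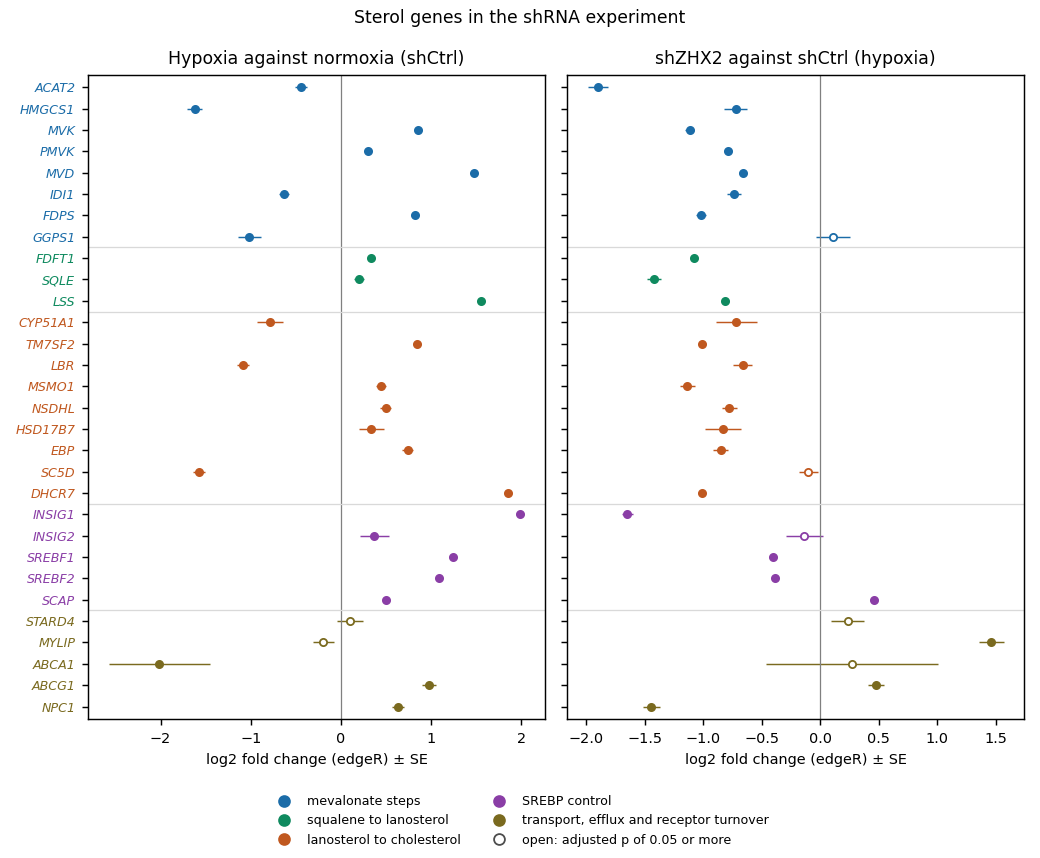
Log2 fold change (edgeR, horizontal axis, ± SE) of the 30 sterol genes, by role from top to bottom, for hypoxia against normoxia in shCtrl cells on the left and shZHX2 against shCtrl cells in hypoxia on the right; open points have an adjusted p of 0.05 or more. On the right 18 of 20 enzymes lie below 0 and are called, while MYLIP reaches 1.46; on the left INSIG1 reaches 1.99 and HMGCS1 lies at -1.62, where 6 genes change sign under library size alone and 7 under the GC and length correction.

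With ZHX2 knocked down in hypoxia, nearly the whole synthesis route was lower. Of the 20 enzymes, 18 fell and none rose, from the first thiolase to the last reductase, with a median log2 fold change of -0.82. Over all 30 members 3 rose and 22 fell, where 33.6% of all genes tested rose and 33.2% fell (66.8% called), and the medians were -0.76 for the members and 0.02 for all genes. The summed level of the 20 enzymes was 1856 to 1894 CPM in shZHX2 cells and 3598 to 3628 CPM in shCtrl cells. No member changed sign with library size alone, which moved the median of all genes by 0.23, or with the GC and length correction. Hypoxic shCtrl libraries served both this comparison and the last, so their members' values are set side by side and not correlated.

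ACAT2, the cytosolic thiolase that starts the route (chromosome 6, 159760328 to 159779055), showed the largest fall, to 9.76, 7.73 and 6.96 CPM in shZHX2 cells, against 30.9, 29.3 and 31.1 CPM in shCtrl cells (-1.90 ± 0.09, adjusted p = 2.3e-28). HMGCS1, already low in hypoxia, had 7.28, 9.09 and 6.96 CPM in shZHX2 cells and 12.8, 13.3 and 12.5 CPM in shCtrl cells (-0.72 ± 0.10). MVD had 197, 203 and 184 CPM in shZHX2 cells and 313, 301 and 311 CPM in shCtrl cells (-0.66 ± 0.03). The other mevalonate steps that fell lay between these values and the -1.12 ± 0.03 of MVK, and GGPS1, which branches to geranylgeranyl diphosphate, was at 0.11 ± 0.14. SQLE, the squalene epoxidase, fell to 24.7, 22.4 and 26.0 CPM in shZHX2 cells, against 63.0, 65.4 and 67.3 CPM in shCtrl cells (-1.42 ± 0.06). FDFT1, which makes squalene, and LSS fell by 1.08 and 0.81 on the log2 scale. Between lanosterol and cholesterol 8 of 9 genes fell, by 0.66 (LBR) to 1.14 (MSMO1) on the log2 scale, and SC5D was at -0.10 ± 0.08.

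INSIG1 fell to 47.8, 45.1 and 45.3 CPM in shZHX2 cells, against 144, 146 and 144 CPM in shCtrl cells (-1.65 ± 0.05, adjusted p = 5.1e-38). The knockdown level of this feedback gene stood just above the 34.1 to 39.1 CPM of normoxic cells. SREBF1 had 348, 374 and 349 CPM in shZHX2 cells and 472, 471 and 474 CPM in shCtrl cells (-0.40 ± 0.04). SREBF2 had 450, 456 and 458 CPM in shZHX2 cells and 607, 602 and 578 CPM in shCtrl cells (-0.39 ± 0.03). Both SREBP genes thus fell less than most of the enzymes. SCAP rose by 0.46 ± 0.03, and INSIG2 was 4.68, 4.68 and 4.91 CPM in shZHX2 cells and 5.67, 5.69 and 4.38 CPM in shCtrl cells, overlapping groups.

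MYLIP showed the largest rise, to 19.5, 22.0 and 22.3 CPM in shZHX2 cells, against 8.14, 6.83 and 8.15 CPM in shCtrl cells (1.46 ± 0.11, adjusted p = 1.4e-18). ABCG1 rose to 36.3, 34.8 and 33.5 CPM in shZHX2 cells, against 25.9, 24.2 and 25.1 CPM in shCtrl cells (0.48 ± 0.07). NPC1, which releases cholesterol from lysosomes, fell to 19.3, 15.5 and 14.9 CPM in shZHX2 cells, against 45.9, 47.4 and 42.2 CPM in shCtrl cells (-1.45 ± 0.07). An efflux gene and the receptor-degrading ligase were therefore higher while the lysosomal exporter was lower. ABCA1 stayed at a few counts, 0.289, 0.218 and 0.110 CPM in shZHX2 cells and 0.0651, 0.190 and 0.243 CPM in shCtrl cells. Mitochondrial genes took 11.9 to 12.4% of counts in shZHX2 and 9.12 to 9.57% in shCtrl cells, 8 of 10 luminal markers fell and 1 rose (summed 28718 to 29121 CPM in shZHX2 and 60704 to 61295 CPM in shCtrl cells), and markers of other cell types summed to 73.5 to 77.4 CPM in shZHX2 and 58.9 to 61.7 CPM in shCtrl cells; the part of these in the fall of the sterol genes was not tested.

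Beyond the 30 members, the 11 SREBP targets of fatty acid synthesis were also counted; 10 were tested here, 7 fell and 3 rose with shZHX2. SCD, the stearoyl desaturase, fell the most, by 1.76 on the log2 scale. Of 10 genes of SREBP processing and sterol-regulated degradation 5 rose and 4 fell, and of 12 genes of the non-sterol mevalonate branches 3 rose and 2 fell. Over all genes tested 33.6% rose and 33.2% fell. LRP8, a lipoprotein receptor on the LXR and oxysterol list and a MYLIP substrate, fell by 2.45 on the log2 scale. VLDLR, another such receptor on that list and also a MYLIP substrate, rose by 0.76. Both are mRNA values, and the part of MYLIP in them was not tested. The list had 3 rises and 3 falls among 8 tested.

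1,6-Hexanediol was given to hypoxic cells at 2 doses. At 0.5% 16 of 20 enzymes fell and 1 rose, with a median log2 fold change of -0.86, and at 1% 18 fell and none rose, with a median of -1.16. Over the 30 members 2 rose and 19 fell at 0.5%, where 19.4% of all genes tested rose and 19.6% fell (39.0% called); with library size alone the 0.5% split was 4 to 16. At 1% 3 rose and 23 fell, where 30.2% rose and 32.3% fell (62.5% called). The second 0.5% library stood apart from the other 2 for many members, and the second library of each dose was the one low in NDRG1. Without both of these the counts were 4 higher and 20 lower at 0.5% and 4 higher and 23 lower at 1%. Among the members changed at least 1.5-fold, each kept its direction and call without them: MVD was -1.22 at 0.5% and -2.51 at 1%, ACAT2 -1.71 and -1.17, SQLE -0.99 and -1.61, MSMO1 -0.46 and -0.69, and INSIG1 was -0.97 and SREBF1 -2.25 at 1%. Summed over the 20 enzymes, the level was 2459 to 2612 CPM in control cells, 1158 to 1524 CPM at 0.5% and 1191 to 1252 CPM at 1%.

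MVD fell in steps: it had 129, 125 and 122 CPM in control cells, 57.3, 30.2 and 50.4 CPM at 0.5%, and 21.6, 21.4 and 22.5 CPM at 1%. Its log2 fold change at 1%, -2.52 ± 0.20 (adjusted p = 2.8e-06), was the largest fall of any member. SREBF1 had 108, 111 and 115 CPM in control cells, 90.7, 63.9 and 87.1 CPM at 0.5%, and 22.4, 24.4 and 24.4 CPM at 1% (-2.23 ± 0.11 at 1%). Most of its fall thus lay between the doses (1% against 0.5%, -1.76 ± 0.11). SREBF2 had 83.2, 77.3 and 79.8 CPM in control cells, 67.5, 60.4 and 60.2 CPM at 0.5%, and 42.9, 47.03 and 44.9 CPM at 1% (-0.83 ± 0.07 at 1%).

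Other enzymes had already fallen at the lower dose. ACAT2 had 82.5, 94.8 and 84.0 CPM in control cells, 24.4, 25.5 and 28.8 CPM at 0.5%, and 42.1, 33.7 and 35.6 CPM at 1%. Its fall at 0.5%, by 1.73 ± 0.10 on the log2 scale, was the largest at that dose, and it was higher at 1% than at 0.5% (0.50 ± 0.10). HMGCS1 followed the same order, with 262, 290 and 265 CPM in control cells, 106, 102 and 119 CPM at 0.5%, and 169, 163 and 171 CPM at 1%. In both genes the 3 groups did not overlap. SQLE had 286, 284 and 266 CPM in control cells, 145, 92.7 and 135 CPM at 0.5%, and 93.2, 89.0 and 88.7 CPM at 1% (-1.62 ± 0.13 at 1%). The farnesyl diphosphate synthase FDPS fell by 1.04 ± 0.21 at 0.5% and by 1.91 ± 0.22 at 1%.

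INSIG1 had 62.7, 64.1 and 58.2 CPM in control cells, 52.6, 28.3 and 49.4 CPM at 0.5%, and 31.4, 23.2 and 31.3 CPM at 1%. It was called at 1% (-1.11 ± 0.22, adjusted p = 0.0022) and was -0.51 ± 0.22 at 0.5% (adjusted p = 0.10), where the second library was the low one. INSIG2 had 28.0, 32.1 and 28.8 CPM in control cells, 28.2, 20.3 and 29.1 CPM at 0.5%, and 23.5, 15.6 and 25.2 CPM at 1% (-0.47 ± 0.18 at 1%). MSMO1 fell by 0.72 ± 0.24 at 0.5% and by 0.82 ± 0.24 at 1%. The 0.5% call was lost without any 1 of the control libraries (adjusted p 0.096 to 0.11). The 1% call was lost without the second 1% library (adjusted p = 0.059).

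TM7SF2 showed the largest difference between the doses. It had 19.9, 22.8 and 21.4 CPM in control cells, 31.3, 25.2 and 29.7 CPM at 0.5%, and 6.44, 6.26 and 6.90 CPM at 1% (1% against 0.5%, -2.14 ± 0.11, adjusted p = 1.6e-09). The gene was thus the 1 enzyme called higher at 0.5%, and it was lower than control at 1%. Over all members 7 were higher and 14 lower at 1% than at 0.5%, where 28.3% of all genes tested were higher and 27.7% lower (56.0% called). NPC1 had 27.2, 27.7 and 24.3 CPM in control cells, 24.4, 20.8 and 24.7 CPM at 0.5%, and 41.9, 43.6 and 43.2 CPM at 1%, the largest rise between the doses (0.88 ± 0.09).

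MYLIP rose at both doses, with 9.38, 7.94 and 8.48 CPM in control cells, 11.6, 12.7 and 11.8 CPM at 0.5%, and 19.3, 16.04 and 21.8 CPM at 1%, and gave the largest called rise of a member at each (0.48 ± 0.13 and 1.14 ± 0.13). ABCG1 had 16.2, 15.4 and 16.4 CPM in control cells, 23.5, 14.9 and 21.5 CPM at 0.5%, and 11.1, 12.4 and 10.8 CPM at 1% (-0.48 ± 0.15 at 1%). ABCA1 had 3.40, 3.37 and 3.00 CPM in control cells, 3.998, 4.04 and 5.77 CPM at 0.5%, and 4.60, 3.52 and 4.35 CPM at 1%, and passed the test at neither dose. At 0.5% every library of MYLIP and ABCA1 lay above the control libraries. ABCG1 did so except in the 14.9 CPM library, the replicate that was low in NDRG1. Without that library, left out here after seeing its values, these 3 known LXR targets lay above control at 0.5%. SREBF1, described above as a target of both systems, lay below control in every 0.5% library (63.9 to 90.7 CPM, against 108 to 115 CPM). The LXR targets named here thus did not all move one way at 0.5%. At 1% ABCG1 lay below its control libraries and MYLIP above them, while ABCA1, not called, sets no pattern of its own. The luminal markers summed to 27373 to 30571 CPM in control cells, 12908 to 17685 CPM at 0.5% and 4470 to 4569 CPM at 1%, with 3 of 10 called higher (SPDEF, GATA3 and FOXA1) and 3 lower (KRT8, KRT18 and KRT19) at 0.5%, and 9 of 10 lower at 1%. ZHX2 itself was higher than in control at 0.5% (0.60 ± 0.12) and at 1% (0.56 ± 0.12). The part of either in the sterol changes was not tested. Of 10 SREBP fatty acid targets tested, 7 fell and none rose at 0.5%, and 8 fell and 1 rose at 1%, with FASN, the fatty acid synthase, at -3.52 ± 0.08. Over all genes tested 19.6% fell at 0.5% and 32.3% at 1%.

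**Figure D2:**
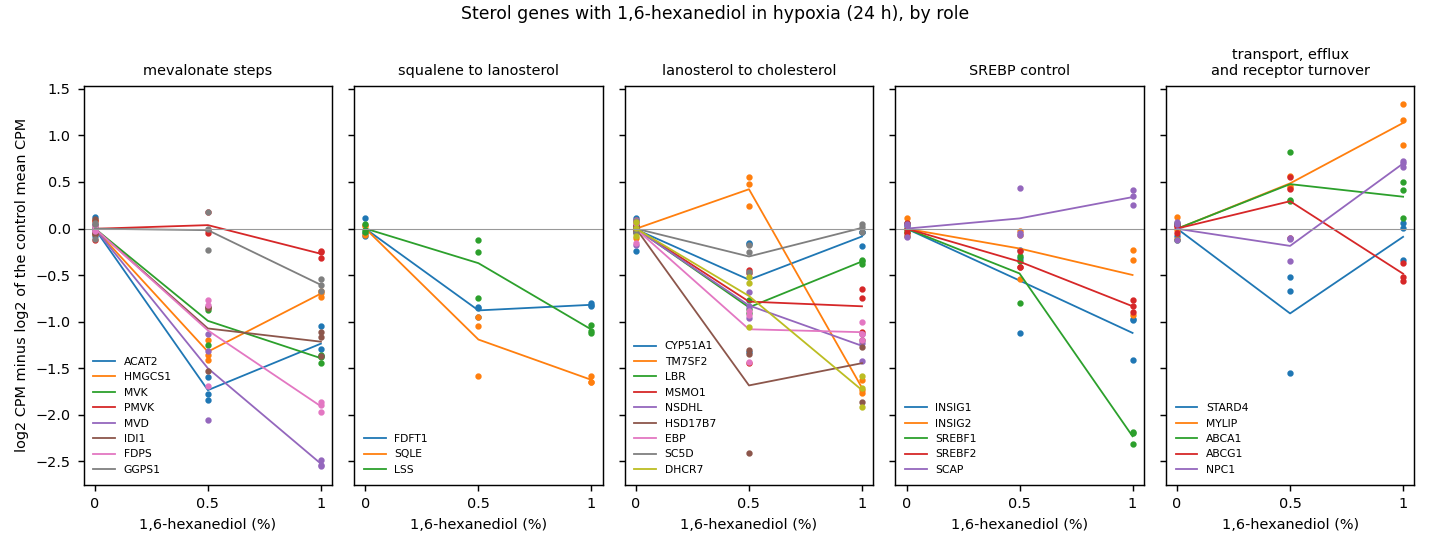
Log2 CPM minus log2 of the control mean CPM (vertical axis) for each of the 30 sterol genes at 0, 0.5 and 1% 1,6-hexanediol (horizontal axis), in 5 panels by role; points are libraries and lines join the values of each gene across doses. MVD and SREBF1 go on falling to 1%, ACAT2 and HMGCS1 lie lower at 0.5% than at 1%, and MYLIP rises, with the second 0.5% library low for INSIG1 (28.3 CPM).

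The rescue table held a second knockdown comparison. With vector in both, shZHX2 cells had 21 members lower and 5 higher than shCtrl cells among 29 tested (ABCA1 had too few counts), where 35.3% of all genes tested were lower and 33.9% higher (69.2% called). The changes were smaller than in the shRNA table, with a members' median of -0.26 and an all-gene median of -0.01, and the enzymes summed to 3998 to 4031 CPM in shZHX2 vector and 4517 to 4551 CPM in shCtrl vector cells. The largest falls were those of NPC1, INSIG2 and SREBF1, not of enzymes. Set beside the shRNA table, 17 of the 29 members were lower in both, 1 (SCAP) higher in both, and 4 lower in the shRNA table but higher here: MVK, TM7SF2, NSDHL and EBP, of which TM7SF2 and NSDHL turned sign here under the GC and length correction. No test was made between the tables, which were normalised separately. The joint count was not made over all genes, of which 66.8% were called in the shRNA table and 69.2% here. All 10 luminal markers fell (summed 31825 to 33129 CPM in shZHX2 vector and 47586 to 49084 CPM in shCtrl vector cells). Markers of other cell types summed to 40.4 to 42.3 CPM in shZHX2 vector and 27.5 to 31.2 CPM in shCtrl vector cells, with 3 of 5 tested called higher. The part of both lists was not tested.

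NPC1 had 24.4, 22.2 and 22.5 CPM in shZHX2 vector cells and 64.4, 62.6 and 61.7 CPM in shCtrl vector cells (-1.45 ± 0.05, adjusted p = 1.0e-39). INSIG2 had 47.9, 48.3 and 50.5 CPM in shZHX2 vector cells and 112, 113 and 121 CPM in shCtrl vector cells (-1.24 ± 0.04). SREBF1 had 295, 309 and 317 CPM in shZHX2 vector cells and 638, 630 and 600 CPM in shCtrl vector cells (-1.02 ± 0.03). All 3 were more than 2-fold lower with no overlap. INSIG1 had 1147, 1098 and 1117 CPM in shZHX2 vector cells and 1684, 1819 and 1804 CPM in shCtrl vector cells (-0.66 ± 0.03). SREBF2 had 349, 356 and 357 CPM in shZHX2 vector cells and 400, 405 and 397 CPM in shCtrl vector cells (-0.18 ± 0.03).

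Among enzymes, HSD17B7, the sterol 3-keto reductase, fell the most, by 0.88 ± 0.05 on the log2 scale, and FDPS fell by 0.71 ± 0.03. MVD had 305, 335 and 329 CPM in shZHX2 vector cells and 432, 423 and 414 CPM in shCtrl vector cells (-0.39 ± 0.03). SQLE had 276, 261 and 260 CPM in shZHX2 vector cells and 320, 317 and 316 CPM in shCtrl vector cells (-0.26 ± 0.03), a far smaller fold than the -1.42 of the shRNA table. HMGCS1 had 205, 196 and 192 CPM in shZHX2 vector cells and 218, 217 and 224 CPM in shCtrl vector cells (-0.15 ± 0.03), with a sign that turned under the GC and length correction. MVK, the mevalonate kinase, gave the largest rise, with 64.6, 64.0 and 64.8 CPM in shZHX2 vector cells and 44.4, 43.8 and 40.9 CPM in shCtrl vector cells (0.58 ± 0.05). MYLIP had 10.5, 8.64 and 7.27 CPM in shZHX2 vector cells and 10.1, 10.8 and 8.87 CPM in shCtrl vector cells, and ABCG1 14.2, 14.9 and 14.1 against 14.6, 15.8 and 16.6 CPM; neither passed the test. ABCA1 had 0 counts in every shZHX2 library of this table and 2 counts over the 3 shCtrl vector libraries.

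WT ZHX2 put back into shZHX2 cells was compared with vector. A small set of members rose well beyond the replicate spread, led by INSIG2, GGPS1, INSIG1 and IDI1, but of the 20 enzymes 8 rose and 10 fell. Over 29 members 14 rose and 13 fell, where 35.1% of all genes tested rose and 34.6% fell (69.7% called), and the split was 12 to 14 with library size alone and 15 to 8 with the GC and length correction. Higher GC content went with lower fold change across all genes tested (Spearman rho -0.38, a description across genes). The correction turned the signs of FDPS, SCAP, TM7SF2, MVK, MVD and SREBF2, none of them changed 1.5-fold. The enzymes summed to 4164 to 4207 CPM with WT and 3998 to 4031 CPM with vector. All 10 luminal markers rose (summed 45232 to 45885 CPM with WT and 31825 to 33129 CPM with vector), and mitochondrial genes took 0.312 to 0.333% of counts with WT and 0.785 to 0.807% with vector; the part of either was not tested.

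INSIG2 (chromosome 2, 118088452 to 118110997) had 143, 140 and 145 CPM with WT and 47.9, 48.3 and 50.5 CPM with vector, the largest rise (1.54 ± 0.04, adjusted p = 3.9e-51). It stood above the 112 to 121 CPM of shCtrl vector cells. INSIG1 had 2039, 2002 and 1914 CPM with WT and 1147, 1098 and 1117 CPM with vector (0.83 ± 0.03), also above shCtrl vector cells (WT against shCtrl vector, 0.17 ± 0.03). SREBF1 had 427, 434 and 431 CPM with WT and 295, 309 and 317 CPM with vector (0.49 ± 0.03), and remained below the 600 to 638 CPM of shCtrl vector cells (-0.53 ± 0.03). NPC1 likewise lay between, with 38.1, 36.6 and 34.9 CPM with WT and 24.4, 22.2 and 22.5 CPM with vector (0.67 ± 0.06). Both INSIG genes thus passed the shCtrl vector level while SREBF1 and NPC1 did not reach it.

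GGPS1 had 8.32, 7.95 and 8.42 CPM with WT and 3.53, 3.35 and 4.13 CPM with vector (1.16 ± 0.12), and IDI1, the isopentenyl diphosphate isomerase, rose by 0.74 ± 0.03. STARD4 rose by 0.63 ± 0.04 and MSMO1 by 0.51 ± 0.03. Several enzymes went the other way with WT: LSS fell by 0.53 ± 0.03 and EBP, the sterol isomerase, by 0.49 ± 0.03. ABCG1 fell the most, to 8.13, 9.36 and 8.36 CPM with WT, against 14.2, 14.9 and 14.1 CPM with vector (-0.74 ± 0.09). MVD had 294, 303 and 292 CPM with WT and 305, 335 and 329 CPM with vector (-0.13 ± 0.03), and SREBF2 had 301, 308 and 292 CPM with WT and 349, 356 and 357 CPM with vector (-0.24 ± 0.03); both signs turned under the GC and length correction. SQLE was 288, 276 and 296 CPM with WT and 276, 261 and 260 CPM with vector (0.11 ± 0.03). HMGCS1 was 194, 203 and 191 CPM with WT and 205, 196 and 192 CPM with vector (-0.01 ± 0.03, adjusted p = 0.72), overlapping groups. MYLIP had 11.01, 11.1 and 10.8 CPM with WT and 10.5, 8.64 and 7.27 CPM with vector (0.32 ± 0.10).

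Against shCtrl vector cells, WT cells had 8 members higher and 17 lower, where 27.1% of all genes tested were higher and 27.1% lower (54.2% called), and 5 higher and 18 lower with library size alone. FDPS was the lowest, with 187, 188 and 189 CPM in WT cells and 354, 357 and 354 CPM in shCtrl vector cells (-0.91 ± 0.03). GGPS1 was the highest by fold, with 8.32, 7.95 and 8.42 CPM in WT cells and 5.27, 4.76 and 4.30 CPM in shCtrl vector cells (0.79 ± 0.12). FDPS makes the farnesyl diphosphate that GGPS1 extends, so consecutive steps differed in direction. ZHX2 itself was 1.18 ± 0.05 higher in WT than in shCtrl vector cells on the log2 scale.

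The PA and SA forms were compared with the same vector libraries, and each with WT. With PA 11 members were higher and 12 lower, where 24.7% of all genes tested were higher and 22.9% lower (47.6% called); this was 16 to 7 with library size alone and 10 to 9 with the GC and length correction. With SA 13 were higher and 9 lower, where 20.2% were higher and 21.5% lower (41.7% called), and the GC and length correction left 11 and 1. Higher GC content went with lower fold change across all genes tested (Spearman rho -0.48 with PA and -0.54 with SA). The largest rise with PA was IDI1, at 322, 327 and 312 CPM with PA and 222, 217 and 208 CPM with vector (0.57 ± 0.03). IDI1 also led with SA, at 346, 364 and 349 CPM (0.71 ± 0.03). The largest falls were FDPS with PA, at 146, 146 and 143 CPM with PA and 226, 216 and 212 CPM with vector (-0.58 ± 0.03), and TM7SF2 with SA, at 103, 99.2 and 90.2 CPM with SA and 120, 123 and 125 CPM with vector (-0.34 ± 0.03).

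INSIG2 separated PA from WT the most. It had 56.2, 60.2 and 57.0 CPM with PA, 71.4, 71.9 and 69.3 CPM with SA, and 143, 140 and 145 CPM with WT (PA against WT, -1.30 ± 0.04, adjusted p = 6.4e-47; SA against WT, -1.01 ± 0.03). INSIG1 had 1463, 1476 and 1486 CPM with PA, 1257, 1352 and 1318 CPM with SA, and 2039, 2002 and 1914 CPM with WT (-0.43 ± 0.03 and -0.60 ± 0.03). Neither PA nor SA libraries reached the WT level of these brakes of the SREBP pathway. GGPS1 had 3.43, 4.33 and 4.21 CPM with PA, 3.92, 4.14 and 3.39 CPM with SA, and 8.32, 7.95 and 8.42 CPM with WT, which made it the largest fall of SA against WT (-1.11 ± 0.12). ABCG1 had 14.8, 17.4 and 15.2 CPM with PA, 14.1, 13.5 and 12.1 CPM with SA, and 8.13, 9.36 and 8.36 CPM with WT, the largest rise of a member in each (0.88 ± 0.08 and 0.62 ± 0.09).

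Counted over 29 members, PA had 8 higher and 13 lower than WT, where 33.2% of all genes tested were higher and 33.7% lower (66.9% called), or 17 and 8 with library size alone, which moved the median of all genes by 0.25. SA had 12 higher and 12 lower than WT, where 32.1% were higher and 32.0% lower (64.1% called). HMGCS1 stood higher with PA and SA than with WT, at 258, 267 and 260 CPM with PA, 251, 266 and 266 CPM with SA, and 194, 203 and 191 CPM with WT (0.42 ± 0.03 and 0.41 ± 0.03). SQLE was 321, 320 and 323 CPM with PA, 313, 317 and 329 CPM with SA, and 288, 276 and 296 CPM with WT (0.17 ± 0.03 and 0.16 ± 0.03). HMGCS1 and SQLE were thus above the WT level, while the enzyme MVD and both INSIG genes were below it. MVD was 225, 240 and 222 CPM with PA, 272, 261 and 259 CPM with SA, and 294, 303 and 292 CPM with WT. SREBF1 was 360, 366 and 358 CPM with PA, 325, 304 and 307 CPM with SA, and 427, 434 and 431 CPM with WT (-0.25 ± 0.03 and -0.46 ± 0.03). SREBF2 was 368, 363 and 356 CPM with PA, 322, 320 and 320 CPM with SA, and 301, 308 and 292 CPM with WT (0.27 ± 0.03 and 0.09 ± 0.03, the SA sign turning under the GC and length correction). MYLIP was 9.59 to 10.4 CPM with PA, 8.38 to 9.69 CPM with SA, and 10.8 to 11.1 CPM with WT. All 10 luminal markers were lower with PA and 9 of 10 with SA than with WT (summed 30035 to 30255 CPM with PA, 33352 to 33823 CPM with SA and 45232 to 45885 CPM with WT). Mitochondrial genes took 1.16 to 1.26% of counts with PA, 1.12 to 1.19% with SA and 0.312 to 0.333% with WT, and the part of either was not tested.

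**Figure D3:**
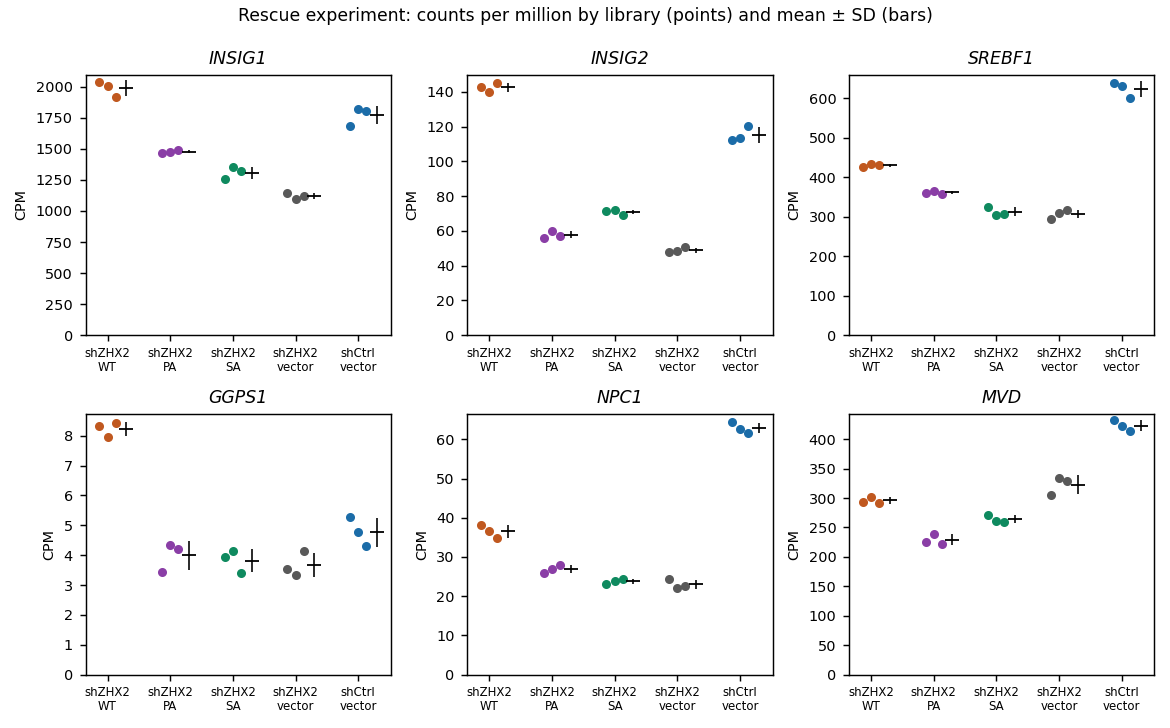
CPM (vertical axis, from 0) of 6 sterol genes in the 5 groups of the rescue table (horizontal axis); points are libraries and crosses the mean ± SD of 3. INSIG1 and INSIG2 are highest with WT ZHX2, above shCtrl vector; SREBF1, NPC1 and MVD are highest in shCtrl vector cells; GGPS1 is highest with WT, at 7.95 to 8.42 CPM.

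In the fatty acid list, which shares SREBP control, 7 of 11 genes fell and none rose in shZHX2 vector against shCtrl vector cells, with SCD at -1.78 ± 0.02, where 35.3% of all genes tested fell. With WT against vector 7 of 11 rose and 2 fell, SCD by 1.47 ± 0.02, and SCD was 1.24 ± 0.02 lower with PA and 1.22 ± 0.02 lower with SA than with WT, the largest fall of that list in both. Of 12 genes of the non-sterol mevalonate branches, 8 rose and 3 fell with WT; COQ2, which attaches the isoprenoid tail of ubiquinone, rose the most (1.05) and DHDDS, of dolichol synthesis, fell the most (-1.14). Of the storage and transport list none rose and 7 of 9 fell with WT. Over all genes tested 35.1% rose and 34.6% fell with WT.

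Guide RNA libraries gave a pattern split by gene. With sgZHX2 against sgCtrl, INSIG1, STARD4, MSMO1, IDI1, INSIG2, SC5D, SQLE and HMGCS1 were each more than 2-fold lower, while TM7SF2, SCAP and MYLIP were higher. Of 29 members 8 rose and 18 fell, where 37.0% of all genes tested rose and 36.1% fell (73.1% called), with medians of -0.29 for the members and 0.01 for all genes. Teton_sgZHX2 against teton_control gave 10 rises and 17 falls, where 34.4% rose and 34.7% fell (69.1% called), with a members' median of -0.23. With the GC and length correction the splits were 3 to 23 and 3 to 18, and EBP, MVK and LSS, here slightly higher in both, turned sign in both, as did NSDHL with sgZHX2. The enzymes summed to 2522 to 2562 CPM with sgZHX2 and 3591 to 3601 CPM with sgCtrl, and to 2512 to 2542 CPM with teton_sgZHX2 and 3306 to 3328 CPM with teton_control.

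INSIG1 fell the most in both pairs. It had 308, 307 and 304 CPM with sgZHX2 and 1070, 1090 and 1081 CPM with sgCtrl (-1.82 ± 0.02, adjusted p = 1.1e-44), and 340, 340 and 335 CPM with teton_sgZHX2 and 959, 970 and 950 CPM with teton_control (-1.51 ± 0.02). STARD4 had 34.5, 36.7 and 34.1 CPM with sgZHX2 and 119, 122 and 116 CPM with sgCtrl (-1.76 ± 0.04). MSMO1 had 156, 150 and 153 CPM with sgZHX2 and 460, 451 and 438 CPM with sgCtrl (-1.55 ± 0.03). All 3 genes were more than 2-fold apart between groups, with close replicates. INSIG2 had 83.2, 81.5 and 81.4 CPM with sgZHX2 and 176, 189 and 181 CPM with sgCtrl (-1.15 ± 0.03).

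SREBF1 had 396, 410 and 413 CPM with sgZHX2 and 595, 600 and 622 CPM with sgCtrl (-0.58 ± 0.03), and 372, 374 and 376 CPM with teton_sgZHX2 and 602, 574 and 547 CPM with teton_control (-0.62 ± 0.03). SREBF2 had 309, 307 and 313 CPM with sgZHX2 and 338, 351 and 347 CPM with sgCtrl (-0.16 ± 0.03), and 292, 294 and 299 CPM with teton_sgZHX2 and 344, 331 and 346 CPM with teton_control (-0.21 ± 0.03). As in the shRNA table, both SREBP genes fell by less than INSIG1. In the rescue table and at 1% hexanediol SREBF1 instead fell more than INSIG1, and SREBF2 less. SCAP rose by 0.77 ± 0.04 with sgZHX2 and by 0.66 ± 0.04 with teton_sgZHX2.

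Of the enzymes, HMGCS1 had 131, 124 and 122 CPM with sgZHX2 and 264, 254 and 267 CPM with sgCtrl (-1.06 ± 0.03), and 146, 147 and 150 CPM with teton_sgZHX2 and 233, 240 and 247 CPM with teton_control (-0.70 ± 0.03). SQLE had 146, 145 and 144 CPM with sgZHX2 and 301, 305 and 302 CPM with sgCtrl (-1.06 ± 0.03), and 151, 152 and 152 CPM with teton_sgZHX2 and 273, 272 and 282 CPM with teton_control (-0.86 ± 0.03). In contrast to these enzymes, MVD was nearly level, at 239, 252 and 245 CPM with sgZHX2 and 240, 240 and 244 CPM with sgCtrl (0.02 ± 0.03, adjusted p = 0.45), and at 224, 224 and 218 CPM with teton_sgZHX2 and 219, 212 and 205 CPM with teton_control (0.07 ± 0.03, a sign that turned under the GC and length correction). ACAT2, the largest fall of the shRNA table, was at -0.05 ± 0.03 with sgZHX2 and 0.11 ± 0.03 with teton_sgZHX2. TM7SF2 gave the largest rise of both pairs, with 142, 156 and 152 CPM with sgZHX2 and 83.4, 83.9 and 82.1 CPM with sgCtrl (0.85 ± 0.03), and 137, 129 and 134 CPM with teton_sgZHX2 and 80.8, 78.1 and 76.9 CPM with teton_control (0.76 ± 0.03). This gene was 1.01 ± 0.03 lower with shZHX2 in the shRNA table.

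MYLIP had 30.4, 30.1 and 30.7 CPM with sgZHX2 and 18.9, 19.5 and 20.1 CPM with sgCtrl (0.64 ± 0.05), and 31.4, 30.6 and 33.1 CPM with teton_sgZHX2 and 21.8, 22.0 and 20.2 CPM with teton_control (0.56 ± 0.05). ABCG1 had 32.6, 35.6 and 31.9 CPM with sgZHX2 and 35.0, 33.8 and 32.1 CPM with sgCtrl, and 32.1, 33.0 and 32.7 CPM with teton_sgZHX2 and 34.5, 34.1 and 34.8 CPM with teton_control, and passed the test in neither pair. ABCA1 had 6 counts with sgZHX2 and 2 with sgCtrl, and 4 with teton_sgZHX2 and 5 with teton_control, too few to test. So of the 3 LXR-linked members MYLIP was called in this table and the exporters were not.

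The pairs share no libraries, and 17 of 29 members were lower in both, 8 higher in both and none called in opposite directions. No such joint count was made over all genes, of which 73.1% were called with sgZHX2 and 69.1% with teton_sgZHX2. A test of the difference between the effects called 14 members, 13 with the more negative effect in sgZHX2 and 1, DHCR7, with the more negative effect in teton_sgZHX2. Of these, 10 kept their call under the GC and length correction; those of HSD17B7, LBR and CYP51A1 were lost, and DHCR7 turned sign (-0.04 ± 0.03, adjusted p = 0.53). The difference went with GC content over all genes tested (Spearman rho 0.49, across genes). As background, 12.0% of all genes tested were called in the first direction and 8.33% in the second (20.3% in all). The largest difference was for IDI1, whose log2 fold change was -1.45 ± 0.03 with sgZHX2 and -0.93 ± 0.03 with teton_sgZHX2 (difference -0.52 ± 0.04, adjusted p = 1.8e-13). For IDI1 the libraries read 173, 162 and 166 CPM with sgZHX2 and 458, 460 and 452 CPM with sgCtrl, and 212, 205 and 215 CPM with teton_sgZHX2 and 403, 397 and 405 CPM with teton_control. DHCR7 read 443, 462 and 452 CPM with sgZHX2 and 517, 518 and 517 CPM with sgCtrl, and 406, 395 and 408 CPM with teton_sgZHX2 and 481, 495 and 501 CPM with teton_control (difference 0.09 ± 0.03).

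Fold change went with GC content over all genes tested in both pairs (Spearman rho 0.56 with sgZHX2 and 0.47 with teton_sgZHX2, across genes). Markers of other cell types summed to 64.2 to 65.3 CPM with sgZHX2 and 36.2 to 38.9 CPM with sgCtrl, and to 57.2 to 58.0 CPM with teton_sgZHX2 and 36.5 to 40.4 CPM with teton_control; 3 of the 5 tested rose in each pair, and VIM fell with sgZHX2 (-0.45 ± 0.17). Luminal markers summed to 40580 to 41474 CPM with sgZHX2 and 39715 to 40443 CPM with sgCtrl, and to 37062 to 38353 CPM with teton_sgZHX2 and 37479 to 37882 CPM with teton_control. Of the 10 luminal markers 5 fell and 2 rose with sgZHX2, and 6 fell and 1 rose with teton_sgZHX2; CDH1 fell the most in both (-0.57 and -0.47). Mitochondrial genes took 1.67 to 1.71% of counts with sgZHX2 and 2.51 to 2.71% with sgCtrl, and 1.69 to 1.82% with teton_sgZHX2 and 2.83 to 2.95% with teton_control. The part of any of these in the sterol changes was not tested. Of the 11 SREBP fatty acid targets 9 fell and 2 rose with sgZHX2 and 8 fell and 2 rose with teton_sgZHX2, with SCD at -1.93 ± 0.02 and -1.58 ± 0.02; over all genes tested 36.1% and 34.7% fell. Of 10 genes of SREBP processing and sterol-regulated degradation 7 fell in each pair, MBTPS2, the site-2 protease that frees SREBP, the most (-0.76 and -0.52).

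**Figure D4:**
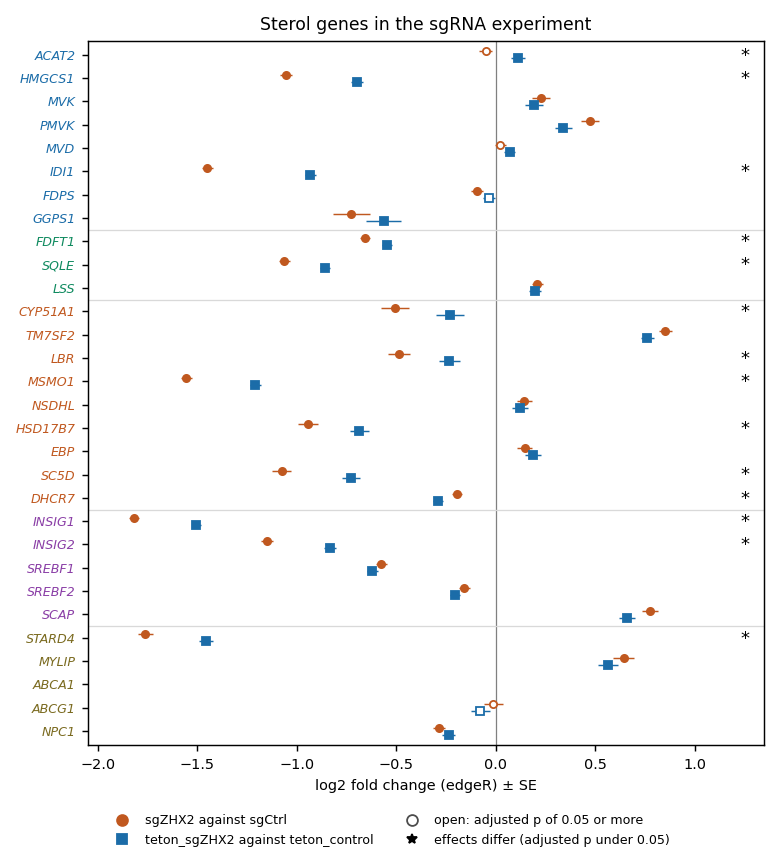
Log2 fold change (edgeR, horizontal axis, ± SE) of the sterol genes by role for sgZHX2 against sgCtrl (circles) and teton_sgZHX2 against teton_control (squares); open symbols have an adjusted p of 0.05 or more and stars mark the 14 genes whose 2 effects differ. INSIG1, STARD4, MSMO1 and IDI1 lie farthest left and TM7SF2, SCAP and MYLIP farthest right; ABCA1 was not tested, and EBP, MVK, LSS and NSDHL turn sign with sgZHX2 under the GC and length correction.

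The last of the comparisons set side by side here, WT against vector, shares its vector libraries with the second, so no overlap is given. INSIG1 was lower in each of the 4 comparisons of reduced or targeted ZHX2 (log2 fold changes -1.65 for shZHX2, -0.66 for shZHX2 vector, -1.82 for sgZHX2 and -1.51 for teton_sgZHX2) and at 1% hexanediol (-1.11), and higher with WT ZHX2 (0.83). SQLE gave -1.42, -0.26, -1.06, -0.86, -1.62 and 0.11 in the same order. MSMO1 gave -1.14, -0.08, -1.55, -1.21, -0.82 and 0.51, with the shZHX2 vector sign turning under the GC and length correction. MVD, in contrast, gave -0.66, -0.39, 0.02, 0.07, -2.52 and -0.13. MVD, ACAT2 and TM7SF2 were each called higher in 1 or more of these comparisons and lower in others. For MVD the higher call was only that with teton_sgZHX2 (0.07), a sign that turned under the GC and length correction.

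**Figure D5:**
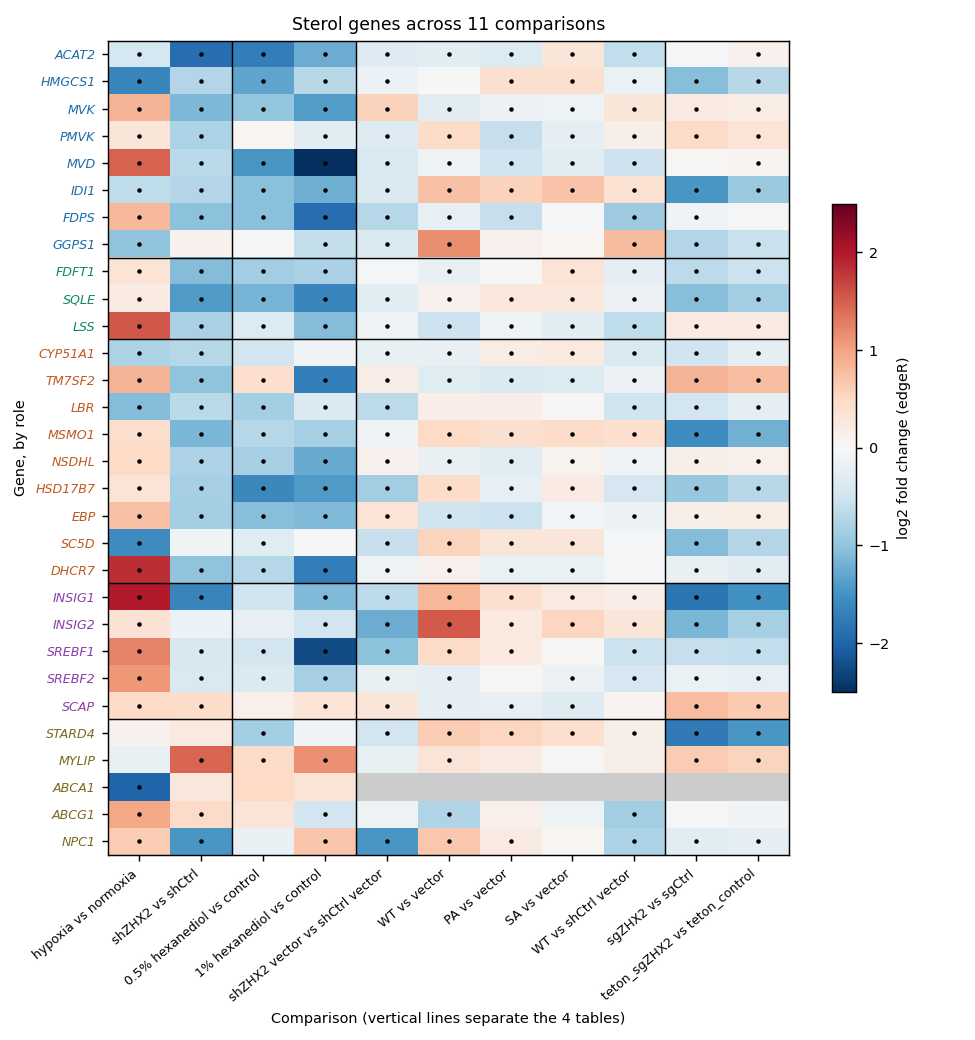
Log2 fold change (edgeR, colour scale from -2.5 to 2.5) of the 30 sterol genes (rows, by role) in 11 comparisons (columns), with vertical lines between the 4 tables; dots mark an adjusted p under 0.05 and grey marks genes not tested. The enzyme rows are mostly blue with shZHX2 and 1% hexanediol, with 18 of 20 enzymes lower in each, and mixed with hypoxia, WT, PA and SA, where signs of several genes depend on scaling or the GC and length correction.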

How the data were processed

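The authors deposited 4 tables of raw read counts per gene for 45 libraries, from polyA RNA sequenced as 150 bp pairs, per the labels' protocols. The submitters' processing notes name FastQC, HISAT2, featureCounts, DESeq2 and hg38, without versions; neither the strand setting nor the annotation is given in the sources used here. The 30 genes and the other lists were chosen with earlier results of these data known. A symbol was found for 60370 of the 60624 identifiers. Positions, exon length and GC content came from GENCODE 29 (GRCh38), promoters from RefSeq.

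Tests used edgeR 4.0.16 (R 4.3.3; filterByExpr, TMM, robust quasi-likelihood fit with all groups of a table, Benjamini-Hochberg adjustment over all genes tested, called at 0.05). This left 14903 (shRNA), 16840 (hexanediol), 14302 (rescue) and 15781 (sgRNA) genes. The fit was tested on simulated counts. Members changed at least 1.5-fold were carried singly through the alternatives: DESeq2 1.42.0, its size factors in edgeR, library size alone, no filter, mean CPM of at least 1, a replicate block, a GC and length correction, only the groups compared, and libraries left out. The GC and length correction also replaced the TMM scaling, so sign changes under it reflect both. In hypoxia it moved the median of all genes by -0.17. All 30 members are named; values per library are given for 10 of them and for the largest rise and fall of each comparison, and other lists by counts with their largest changes; a few further members and groups of values were picked after seeing them. Replicate pairs differed by more than counting noise (chi-square per degree of freedom 1.77 to 29.5), so each library was counted once. For 1% and 0.5% hexanediol, same-number libraries deviated together (correlations 0.12, 0.32 and 0.12, over the 0.1 set as minimum), although only 2 of the 6 correlated best with their own number; the labels do not state a pairing.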

Additional observations from a re-analysis of the deposited data

Results flagged for a closer look

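Effects on 14 members differed between the sgRNA pairs by the test of the difference itself (edgeR, adjusted p under 0.05). The sgZHX2 effect minus the teton_sgZHX2 effect, on the log2 scale, was -0.52 for IDI1, -0.36 for HMGCS1, -0.35 for both MSMO1 and SC5D, -0.32 for INSIG2 and -0.31 for both INSIG1 and STARD4. It was -0.28 for CYP51A1, -0.26 for HSD17B7, -0.25 for LBR, -0.20 for SQLE, -0.16 for ACAT2 and -0.11 for FDFT1, and 0.0946 for DHCR7. ACAT2 was not called with sgZHX2 alone. Over all genes tested the difference went with GC content (Spearman rho 0.49, across genes). Under the GC and length correction HSD17B7, LBR and CYP51A1 lost their call, and DHCR7 turned sign and lost its call.

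The shZHX2 effect on 4 enzymes pointed in opposite directions in the shRNA and rescue tables, with every treated library on its own side of every control library in each table. MVK gave -1.12 in the shRNA table and 0.58 in the rescue table. TM7SF2 gave -1.01 and 0.16, NSDHL -0.78 and 0.10, and EBP -0.85 and 0.35, in the same order. The difference between tables was not tested, and the rescue values of TM7SF2 and NSDHL turned sign under the GC and length correction. How many of all genes did the same was not counted.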

How the results depend on the processing

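Of the 15 counts of members called, those of 5 comparisons changed their leading direction or moved by over 1.5 times under an alternative. With library size alone, hypoxia against normoxia had 25 calls (12 higher and 13 lower), WT against vector 26 (12 and 14), PA against vector 23 (16 and 7) and PA against WT 25 (17 and 8). With the GC and length correction PA against vector had 19 calls (10 and 9) and SA against vector 12 (11 and 1). The cause was not tested. Library size alone moved the fold changes of all genes by a median of -0.48 in hypoxia, 0.23 with shZHX2, 0.12 and 0.18 with 0.5% and 1% hexanediol, 0.15 for PA against vector, -0.11 for WT against shCtrl vector and 0.25 for PA against WT.

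Of 148 single-gene results, 5 reversed, all in hypoxia with the GC and length correction: IDI1 to 0.46, GGPS1 to 0.12, CYP51A1 to 0.22, TM7SF2 to -0.10 and LBR to 0.26. Another 5 lost their call under some alternative, all with hexanediol: MSMO1 at both doses, STARD4 at 0.5%, and INSIG1 and STARD4 between doses. INSIG1 between doses was -0.60, and leaving out single treated libraries gave -0.46 to -0.67, with adjusted p 0.069 to 0.14 where the call was lost. No single-gene result lost its call or sign under DESeq2, its size factors, no filter or the replicate block.

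Leaving out 1 library at a time gave, for members called, 27 to 28 in hypoxia, 25 to 26 with shZHX2, 17 to 24 with 0.5% and 23 to 26 with 1% hexanediol, 19 to 25 between doses, 24 to 26 with shZHX2 vector, 25 to 27 with WT, 22 to 23 with PA and 19 to 21 with SA against vector, 24 to 25 for WT against shCtrl vector, 21 to 22 for PA and 23 to 25 for SA against WT, 26 to 27 with sgZHX2, 26 to 27 with teton_sgZHX2 and 11 to 15 for their difference. Where 2 libraries remained in a group, the spread came from all groups of the table. The replicate block left 21 calls between doses (7 higher and 14 lower), the 1 pair of groups of 22 taken as paired, and changed no call of a single gene carried through the alternatives. The fit of only the groups compared was not run for the difference of the sgRNA effects, which uses all 4 groups. Depth limits ABCA1, with 0 to 47 counts per group outside the hexanediol table.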
